A study of Mus musculus with 30 samples.

Results

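The genes described here are 10 inflammatory cytokines, cytokine antagonists and inducible enzymes: Il1a, Il1b, Il1rn, Il6, Il27, Il15, Il18, Il18bp, Nos2 and Ptgs2. They were chosen by name, and all 10 had a row among the 39676 genes counted and passed a minimum mean of 10 counts over the tumors, as did 15926 genes in all. Their levels were compared over 30 whole tumors, 10 of each of 3 types, taken 8 days after subcutaneous inoculation of B16 melanoma cells into C57BL/6 mice, which the study's methods give as female and as mostly aged 8 to 12 weeks. B16 is a mouse melanoma line from the same strain. B16-IFNA4 and B16-IFNA9 tumors grew from cells transduced with a retroviral vector that carries murine IFNα4 or IFNα9 together with GFP under a viral LTR promoter, and B16-GFP tumors from cells with the vector that carries GFP without an interferon. The cells of all 3 types also carried the glycoprotein B of herpes simplex virus and firefly luciferase (the study adds gB.luc to the names of the lines). All were sorted for fluorescence and then selected with puromycin, so that each type rests on 1 engineered line. The interferon came from the injected cells and was present from the day of inoculation, which limits the types as models of interferon that arises within a tumor.

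IL-1α and IL-1β are potent initiators of inflammation that act through a shared receptor, and the IL-1 receptor antagonist, encoded by Il1rn, occupies this receptor without signaling. IL-18, a relative of IL-1β, acts on NK cells and T cells and is held in check by a secreted decoy, the IL-18 binding protein (Il18bp). IL-15 sustains NK cells and memory CD8+ T cells, IL-27 is a cytokine of antigen-presenting cells, and IL-6 is produced by many stromal and myeloid cells. Nos2 encodes the inducible nitric oxide synthase, and Ptgs2 encodes cyclooxygenase-2, which starts the synthesis of prostaglandins. Myeloid cells are well-known sources of most of these proteins, whereas Il18 and Il1a are also made by keratinocytes.

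Libraries held 14598517 to 19788383 counts. Levels are given as CPM, counts relative to the size of the library, after TMM normalization, which scales libraries by a trimmed mean of their log ratios. Differences were taken from one edgeR fit of all 30 tumors by its quasi-likelihood test, with Benjamini-Hochberg adjustment over all genes tested, and a gene was called at an adjusted p under 0.05. Log2 fold changes from this fit are given with their standard error (SE). Ifna4 had 81 to 188 counts in each B16-IFNA4 tumor and 0 in each other tumor, and Ifna9 had 55 to 148 counts in each B16-IFNA9 tumor and 0 in each other tumor, so the transgenes matched the labels. Tumor 7 of B16-GFP stood apart: it had the lowest leukocyte and keratinocyte marker levels and the highest melanocyte marker level of its type, and it was the lowest B16-GFP tumor for 8 of the 10 genes. Values without it are given where a call depends on it. The labels name each tumor as a biological replicate, and the p-values measure the spread between these tumors.

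In B16-IFNA4 tumors all 10 genes were called higher than in B16-GFP tumors, against 65.4% of all genes tested that were called, 31.3% higher and 34.1% lower. The number of the 10 called was 9 in 16 of the 38 fits run, each of which lost Ptgs2. Over the 10 the median log2 fold change was 1.15, beside 0.0092 over all genes tested. For 5 of them, Il1rn, Il27, Il15, Il18 and Il18bp, each B16-IFNA4 tumor lay above each B16-GFP tumor, as for 8.49% of all genes, where 18.5% separated in either direction and 10% downward. In B16-IFNA9 tumors 7 genes were called higher than in B16-GFP tumors and none lower, against 55.7% of all genes called, 26.9% higher and 28.9% lower. With scaling by totals alone, 5052 genes were called higher and 3608 lower there, against 4281 and 4595. In the main fit, the median log2 fold change of the 10 genes there was 0.69, beside −0.0031 over all genes. The 3 genes that did not pass were Il1b, Il6 and Ptgs2, with log2 fold changes of 0.12, 0.02 and 0.04. Only Il18bp separated without overlap in this comparison, as did 7.77% of all genes, 4.43% upward and 3.34% downward. Both comparisons share the B16-GFP tumors.

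B16-IFNA9 tumors set directly against B16-IFNA4 tumors had 4 genes called lower (Il1rn, Il6, Il15 and Il18) and 2 called higher (Il18bp and Nos2), against 17.8% of all genes called, 7.25% lower and 10.5% higher. The 10 had a median log2 fold change of −0.50, beside −0.0055 over all genes. Of the means, 8 were highest in B16-IFNA4 tumors, and those of Il18bp and Nos2 were highest in B16-IFNA9 tumors. For Il1rn and Il15 each B16-IFNA9 tumor lay below each B16-IFNA4 tumor, as for 0.741% of all genes, where 2.83% separated in either direction and 2.08% upward. The number of the 10 called in this comparison ran from 3 to 8 over the alternative settings and the fits without 1 tumor, and it was 7 without B16-GFP tumor 7.

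**Figure D1:**
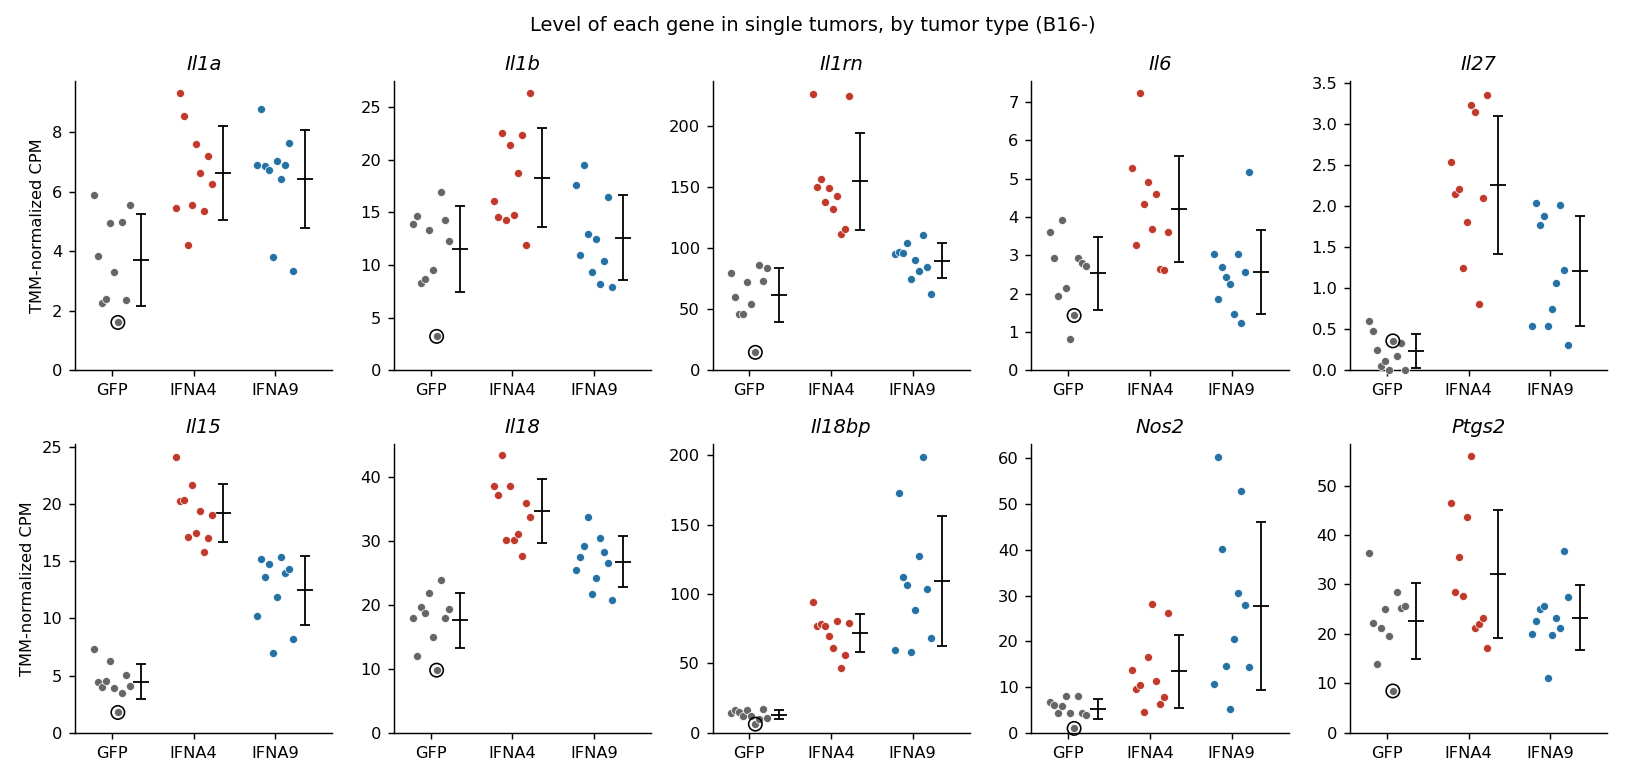
TMM-normalized CPM of the 10 genes (1 panel each, y axes from 0) in each of the 10 tumors per type (points, in the order of the replicate numbers), with the mean and SD beside them. The ring marks B16-GFP tumor 7. Il15, Il18 and Il1rn were highest in B16-IFNA4 tumors, whereas Il18bp (46.9 to 94.2 CPM in B16-IFNA4 and 58.1 to 199 CPM in B16-IFNA9 tumors) and Nos2 reached their highest values with IFNα9.

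**Figure D2:**
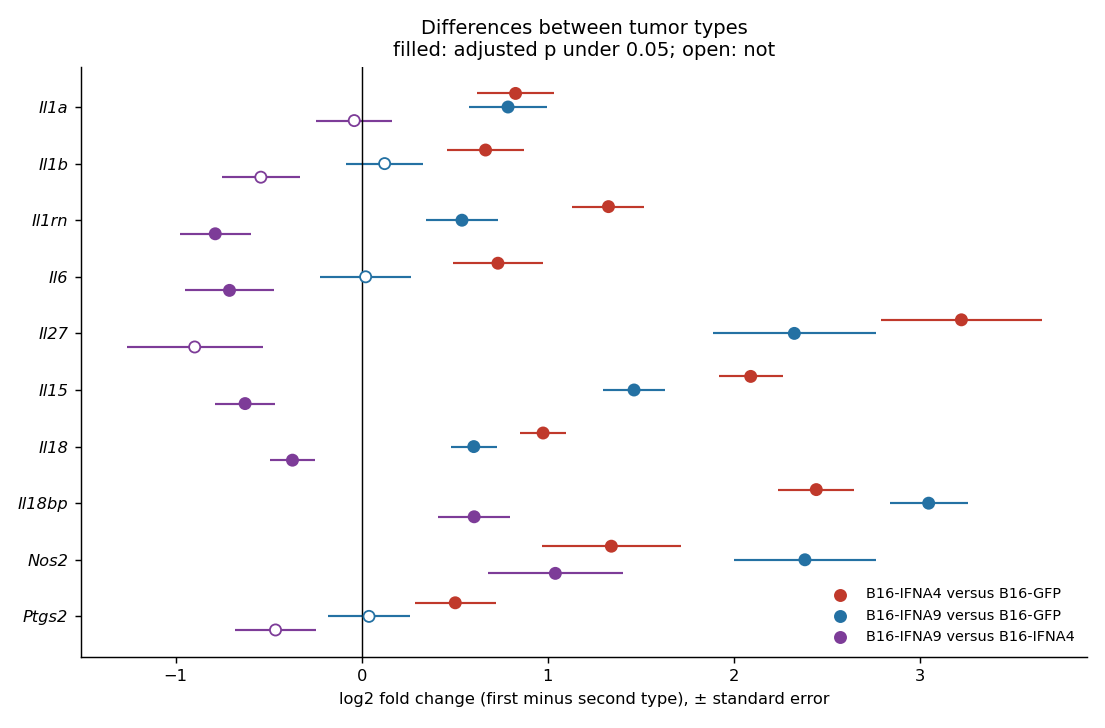
Log2 fold changes of the 10 genes (x axis, first minus second type) with their standard errors in the 3 comparisons. Filled points passed an adjusted p of 0.05 and open points did not. Il27, Il18bp and Il15 differed most between B16-IFNA4 and B16-GFP tumors (3.22, 2.44 and 2.09), and Il1b, Il6 and Ptgs2 lay close to 0 between B16-IFNA9 and B16-GFP tumors.

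The IL-1 genes lie on chromosome 2 (GRCm38 coordinates from GENCODE M21): Il1a (ENSMUSG00000027399.1) from 129299610 to 129309972 and Il1b (ENSMUSG00000027398.13) from 129364570 to 129371139, both on the minus strand, and Il1rn (ENSMUSG00000026981.15) from 24336853 to 24351494 on the plus strand. Il1a ranged from 1.61 to 5.90 CPM (median 3.58) in B16-GFP, from 4.21 to 9.33 CPM (median 6.45) in B16-IFNA4 and from 3.32 to 8.77 CPM (median 6.87) in B16-IFNA9 tumors. Of the B16-IFNA4 tumors 6, and of the B16-IFNA9 tumors 8, lay above all B16-GFP tumors. Its log2 fold change against B16-GFP tumors was 0.83 with IFNα4 (SE 0.21, adjusted p = 0.000999) and 0.79 with IFNα9 (SE 0.21, adjusted p = 0.00211). Between the interferon-secreting types it was −0.04 (SE 0.20, adjusted p = 0.918), less than the spread between tumors. The means in these types were 6.61 ± 1.58 CPM (SD, n = 10) and 6.44 ± 1.65 CPM. Exons of Il1a share 222 bases, or 11.25% of their length, with Gm14023 on the other strand, whose mean was 0.674, 0.686 and 0.623 CPM in B16-GFP, B16-IFNA4 and B16-IFNA9 tumors.

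Il1b, the secreted cytokine that inflammasomes process, ranged from 3.21 to 16.9 CPM (median 12.8) in B16-GFP, from 11.9 to 26.3 CPM (median 17.4) in B16-IFNA4 and from 7.87 to 19.5 CPM (median 11.7) in B16-IFNA9 tumors. The 3 ranges overlapped, and 5 B16-IFNA4 tumors exceeded all B16-GFP tumors. It was higher in B16-IFNA4 than in B16-GFP tumors by a log2 fold change of 0.67 (SE 0.21, adjusted p = 0.00635). The difference of 0.12 between B16-IFNA9 and B16-GFP tumors (SE 0.21, adjusted p = 0.631) did not pass. With −0.54 between B16-IFNA9 and B16-IFNA4 tumors (SE 0.21, adjusted p = 0.0684), Il1b missed the threshold, and it passed without B16-GFP tumor 7 (adjusted p = 0.0172) and without B16-IFNA9 tumor 3 (adjusted p = 0.036), with DESeq2 (adjusted p = 0.0392) and with only the 20 tumors compared (adjusted p = 0.0208). Exons of Il1b share 25 bases, or 1.31%, with Il1bos on the other strand (0.369, 0.932 and 1.05 CPM).

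Il1rn ranged from 14.6 to 86.6 CPM (median 66.5) in B16-GFP, from 112 to 226 CPM (median 146) in B16-IFNA4 and from 62.1 to 111 CPM (median 92.9) in B16-IFNA9 tumors. B16-IFNA4 tumors did not overlap with either other type, and 6 B16-IFNA9 tumors lay above all B16-GFP tumors. The log2 fold change was 1.33 in B16-IFNA4 against B16-GFP tumors (SE 0.19, adjusted p = 8.25e-07), 0.54 in B16-IFNA9 against B16-GFP tumors (SE 0.19, adjusted p = 0.0178) and −0.79 in B16-IFNA9 against B16-IFNA4 tumors (SE 0.19, adjusted p = 0.00424).

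The promoters of these genes were searched, because several of them moved together, for 4 motifs on both strands: the core of the interferon-stimulated response element (GAAA, any 2 bases, GAAA), a STAT dimer site (TTC, any 3 bases, GAA), an NF-κB site (GGG, any 3 bases, TTCC) and an AP-1 site (TGANTCA). The RefSeq windows (GRCm38.p6) run from 250 bases before to 50 bases after a gene's RefSeq start. They existed for Il1a, Il1b, Il1rn, Il6, Il18, Il18bp and Ptgs2. Of all 32851 windows, 3.44%, 8.3%, 5.56% and 7.81% held the 4 motifs in this order. The interferon-stimulated response element core and the STAT motif had no match in the windows of these 7 genes, which says only that these letters are absent there. The 250 bases before the start are shown for the IL-1 genes with a match, with the matches in capitals. Il1a at chr2:129309973-129310222 (minus strand) held TGACTCA from base −12 relative to the start. Il1rn, at the first of its 3 starts (chr2:24336610-24336859, plus strand), held TGAGTCA from base −141, and GGGCAGTTCC began at base −4 and ran over the start, so that it is left in lower case. The other Il1rn windows held GGGTTTTTCC.
Il1a: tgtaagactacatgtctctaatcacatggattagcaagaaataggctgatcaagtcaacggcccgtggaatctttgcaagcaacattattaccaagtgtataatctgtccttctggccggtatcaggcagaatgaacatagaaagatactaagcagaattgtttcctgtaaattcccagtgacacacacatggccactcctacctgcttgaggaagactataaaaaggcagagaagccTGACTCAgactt
Il1rn: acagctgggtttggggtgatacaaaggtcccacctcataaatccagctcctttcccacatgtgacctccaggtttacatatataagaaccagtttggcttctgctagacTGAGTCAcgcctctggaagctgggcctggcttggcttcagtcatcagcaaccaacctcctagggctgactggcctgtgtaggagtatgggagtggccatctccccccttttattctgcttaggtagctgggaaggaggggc

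Il18 (ENSMUSG00000039217.13, chromosome 9 from 50554827 to 50581840, plus strand) ranged from 9.81 to 23.95 CPM (median 18.4) in B16-GFP, from 27.7 to 43.5 CPM (median 34.9) in B16-IFNA4 and from 20.8 to 33.7 CPM (median 27.0) in B16-IFNA9 tumors. B16-IFNA4 tumors lay above all B16-GFP tumors, and 6 B16-IFNA9 tumors lay below all B16-IFNA4 tumors. Il18 had log2 fold changes against B16-GFP tumors of 0.97 with IFNα4 (SE 0.12, adjusted p = 6.84e-08) and 0.60 with IFNα9 (SE 0.12, adjusted p = 0.000143). The difference of −0.37 between the interferon-secreting types (SE 0.12, adjusted p = 0.031) was small and was lost in 8 of the fits that left out 1 tumor, those without B16-IFNA4 tumors 1, 3 and 5 and B16-IFNA9 tumors 1, 5, 6, 9 and 10 (adjusted p = 0.0514 to 0.0694). It was also lost with scaling by totals (adjusted p = 0.0643), without a filter on low counts (adjusted p = 0.0535) and with a replicate block (adjusted p = 0.0539).

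Il18bp (ENSMUSG00000070427.4, chromosome 7 from 102014885 to 102018690, minus strand) was highest with IFNα9, unlike Il18. It ranged from 6.33 to 17.3 CPM (median 13.6) in B16-GFP, from 46.9 to 94.2 CPM (median 76.9) in B16-IFNA4 and from 58.1 to 199 CPM (median 105) in B16-IFNA9 tumors. B16-GFP tumors lay below both other types without overlap, and 6 B16-IFNA9 tumors lay above all B16-IFNA4 tumors. It was 5.43-fold higher in B16-IFNA4 than in B16-GFP tumors, a log2 fold change of 2.44 (SE 0.20, adjusted p = 1.94e-11), and 8.26-fold higher in B16-IFNA9 tumors, 3.05 on the log2 scale (SE 0.21, adjusted p = 7.11e-13). Between the interferon-secreting types it was higher with IFNα9 by 0.60 (SE 0.19, adjusted p = 0.0268). That last call was lost without B16-IFNA4 tumor 8, B16-IFNA9 tumor 2 or B16-IFNA9 tumor 8 (log2 fold change 0.47 to 0.55, adjusted p = 0.0516 to 0.0707). It was also lost with a replicate block (0.55, adjusted p = 0.0816). The spread within B16-IFNA9 tumors, a coefficient of variation of 42.7%, exceeded that of 19.1% in B16-IFNA4 tumors. Exons of Il18bp share 80 bases, or 2.64% of their length, with Numa1 on the other strand, whose mean was 98.1, 121 and 119 CPM in B16-GFP, B16-IFNA4 and B16-IFNA9 tumors. The strand setting of the counting is not given in the sources used here. Il18bp had the highest fold change of the 10 between B16-IFNA9 and B16-GFP tumors. The sequence before its RefSeq start is shown from chr7:102018233-102018482 (minus strand). These bases lie within the GENCODE span of the gene, which begins at 102018690 on this strand. They held none of the 4 motifs, and the sequence before the GENCODE start was not searched.
Il18bp: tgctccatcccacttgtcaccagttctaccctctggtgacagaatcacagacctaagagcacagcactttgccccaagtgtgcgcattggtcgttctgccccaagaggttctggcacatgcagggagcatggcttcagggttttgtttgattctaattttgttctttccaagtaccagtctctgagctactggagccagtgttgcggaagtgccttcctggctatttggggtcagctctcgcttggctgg

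Antagonist and agonist were next compared within each tumor, as the log2 ratio of their counts with 0.5 added to both, in a permutation test (two-sided, 100000 resamples) with p-values adjusted over 9 tests. Scaling and gene length do not enter such a difference between types, and depth enters only through the added counts. The ratio of Il18bp to Il18 ran from −1.27 to 0.48 (mean −0.43 ± 0.47, SD, n = 10) in B16-GFP, from 0.64 to 1.37 (mean 1.04 ± 0.26) in B16-IFNA4 and from 1.22 to 2.81 (mean 1.93 ± 0.49) in B16-IFNA9 tumors. B16-GFP tumors did not overlap with the others, and 9 of 10 B16-IFNA9 tumors lay above all B16-IFNA4 tumors. The ratio exceeded that of B16-GFP tumors by 1.47 with IFNα4 and by 2.36 with IFNα9 (permutation tests, adjusted p = 0.000135 for each), and it was higher with IFNα9 than with IFNα4 by 0.89 (permutation test, adjusted p = 0.00042).

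The ratio of Il1rn to Il1b had means of 2.40 ± 0.20, 3.08 ± 0.40 and 2.88 ± 0.39 in B16-GFP, B16-IFNA4 and B16-IFNA9 tumors. It was higher by 0.68 with IFNα4 (permutation test, adjusted p = 0.000562), where 9 tumors exceeded all B16-GFP tumors, and by 0.48 with IFNα9 (permutation test, adjusted p = 0.00505), where 7 did. B16-IFNA9 and B16-IFNA4 tumors differed by −0.20 (permutation test, adjusted p = 0.27). The ratio of Il1rn to Il1a had means of 4.03 ± 0.45, 4.54 ± 0.50 and 3.83 ± 0.28. It was lower with IFNα9 than with IFNα4 by a log2 difference of −0.71 (permutation test, adjusted p = 0.00106), and 7 B16-IFNA9 tumors lay below all B16-IFNA4 tumors. The difference of 0.51 between B16-IFNA4 and B16-GFP tumors (permutation test, adjusted p = 0.036) was lost without any 1 of B16-GFP tumors 1, 5, 7 and 10 and B16-IFNA4 tumors 1, 4, 5 and 10 (0.41 to 0.50, adjusted p = 0.0518 to 0.0699). It was also lost with a replicate block, in a sign-flip test of same-numbered tumors (adjusted p = 0.0904). Between B16-IFNA9 and B16-GFP tumors the difference was −0.20 (permutation test, adjusted p = 0.27).

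**Figure D3:**
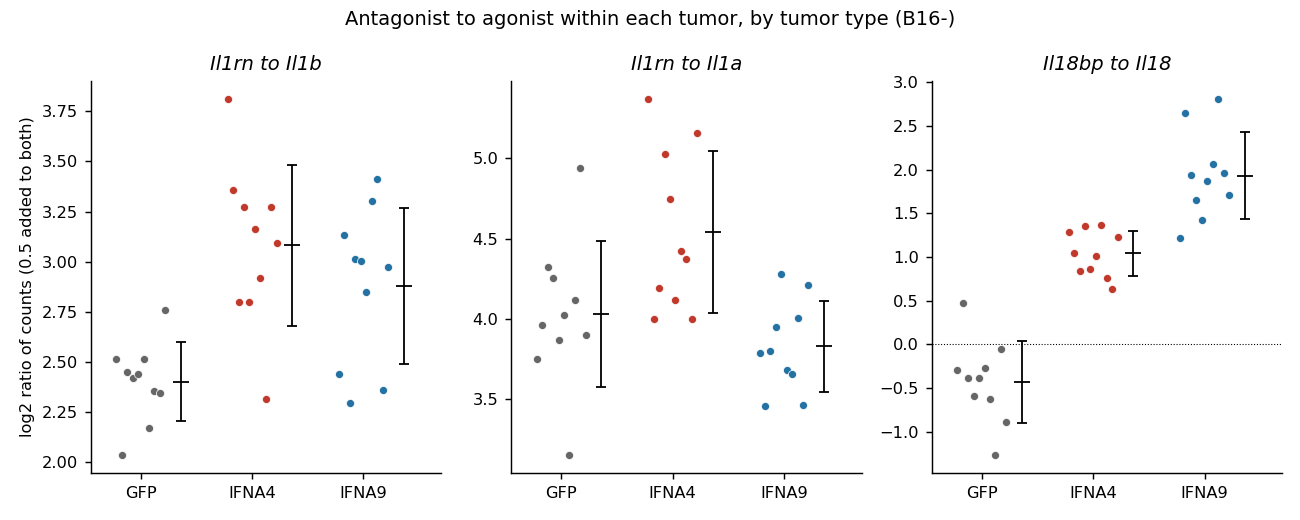
Log2 ratio of antagonist to agonist counts (y axis, 0.5 counts added to both) in each tumor (points) by type, with the mean and SD beside them. The dotted line in the panel of Il18bp to Il18 marks equal counts. Il18bp to Il18 rose from −0.43 in B16-GFP to 1.04 in B16-IFNA4 and 1.93 in B16-IFNA9 tumors, with all B16-GFP tumors below the others.

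Il15 (ENSMUSG00000031712.10, chromosome 8 from 82331632 to 82403222, minus strand) ranged from 1.78 to 7.37 CPM (median 4.27) in B16-GFP, from 15.8 to 24.1 CPM (median 19.2) in B16-IFNA4 and from 6.98 to 15.4 CPM (median 13.8) in B16-IFNA9 tumors. B16-IFNA4 tumors lay above all tumors of both other types, and 9 of 10 B16-IFNA9 tumors lay above all B16-GFP tumors. B16-IFNA9 tumor 5 was the exception. Il15 was 4.26-fold higher with IFNα4, a log2 fold change of 2.09 (SE 0.17, adjusted p = 1.2e-11), and 2.76-fold higher with IFNα9, 1.46 (SE 0.17, adjusted p = 3.12e-08). It was lower with IFNα9 than with IFNα4, with a log2 fold change of −0.63 (SE 0.16, adjusted p = 0.007).

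Il27 (ENSMUSG00000044701.5, chromosome 7 from 126589010 to 126594941, minus strand), which encodes the p28 subunit of IL-27, had the fewest counts of the 10, between 0 and 57 per tumor. It ranged from 0 to 0.601 CPM (median 0.210) in B16-GFP, from 0.805 to 3.35 CPM (median 2.17) in B16-IFNA4 and from 0.307 to 2.03 CPM (median 1.14) in B16-IFNA9 tumors. All B16-IFNA4 tumors and 7 B16-IFNA9 tumors lay above all B16-GFP tumors. Against B16-GFP tumors, Il27 differed by a log2 fold change of 3.22 with IFNα4 (SE 0.43, adjusted p = 1.96e-07) and 2.32 with IFNα9 (SE 0.44, adjusted p = 5.58e-05). Between the interferon-secreting types it was −0.90 (SE 0.37, adjusted p = 0.0879), and it passed with DESeq2 (adjusted p = 0.0463) and with only the 20 tumors compared (adjusted p = 0.0321). Of the exon bases of Il27, 103 (10.1%) lie within exons of Apobr on the other strand. Apobr had means of 11.0, 46.3 and 34.0 CPM in B16-GFP, B16-IFNA4 and B16-IFNA9 tumors, the same order of types as for Il27. The reads of both genes cannot be told apart here in the shared bases, and the part of Apobr in the difference of Il27 was not tested.

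Il6 (ENSMUSG00000025746.11, chromosome 5 from 30013114 to 30019981, plus strand) had 13 to 141 counts per tumor. It ranged from 0.812 to 3.91 CPM (median 2.76) in B16-GFP, from 2.62 to 7.22 CPM (median 4.00) in B16-IFNA4 and from 1.23 to 5.16 CPM (median 2.49) in B16-IFNA9 tumors. The ranges overlapped, although 5 B16-IFNA4 tumors exceeded all B16-GFP tumors. Il6 differed from B16-GFP tumors by 0.73 on the log2 scale with IFNα4 (SE 0.24, adjusted p = 0.00921) and 0.02 with IFNα9 (SE 0.24, adjusted p = 0.946). The difference of −0.71 between B16-IFNA9 and B16-IFNA4 tumors (SE 0.24, adjusted p = 0.0387) was lost in 12 of the 30 fits that left out 1 tumor, those without B16-IFNA4 tumors 1, 3, 4, 5 and 7 and B16-IFNA9 tumors 1, 2, 4, 5, 6, 8 and 9 (adjusted p = 0.0505 to 0.0861). It was also lost with scaling by totals (adjusted p = 0.0532) and without a filter on low counts (adjusted p = 0.0674). Its promoter (chr5:30012864-30013113, plus strand) is shown because it alone held both an NF-κB and an AP-1 match wholly within the 250 bases before 1 start. The first Il1rn window also held both motifs, but its NF-κB match ran over the start. The Il6 sequence had TGAGTCA from base −249 and GGGATTTTCC from base −44, in capitals.
Il6: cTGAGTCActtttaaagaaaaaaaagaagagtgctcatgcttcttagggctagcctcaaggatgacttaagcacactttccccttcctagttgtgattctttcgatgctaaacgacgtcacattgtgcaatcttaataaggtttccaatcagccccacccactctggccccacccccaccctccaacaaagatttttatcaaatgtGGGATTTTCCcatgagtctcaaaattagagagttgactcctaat

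Nos2 (ENSMUSG00000020826.8, chromosome 11 from 78920787 to 78960254, plus strand) ranged from 0.981 to 8.02 CPM (median 5.15) in B16-GFP, from 4.50 to 28.1 CPM (median 10.9) in B16-IFNA4 and from 5.21 to 60.2 CPM (median 24.1) in B16-IFNA9 tumors. It varied most of the 10 within the interferon-secreting types, with coefficients of variation of 59.5% and 66.5%. Of the B16-IFNA9 tumors 9, and of the B16-IFNA4 tumors 7, lay above all B16-GFP tumors. Nos2 exceeded its level in B16-GFP tumors by 1.34 on the log2 scale with IFNα4 (SE 0.37, adjusted p = 0.00256) and 2.38 with IFNα9 (SE 0.38, adjusted p = 7.41e-06). B16-IFNA9 tumors exceeded B16-IFNA4 tumors by 1.04 (SE 0.36, adjusted p = 0.0449), with 4 tumors above all B16-IFNA4 tumors. This call was lost without any 1 of B16-IFNA4 tumors 1, 2, 3, 4, 5, 7, 8 and 9 and B16-IFNA9 tumors 2, 3, 7, 8 and 9 (log2 fold change 0.84 to 1.08, adjusted p = 0.052 to 0.109), without a filter on low counts (adjusted p = 0.0617) and with a replicate block (adjusted p = 0.112).

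Ptgs2 (ENSMUSG00000032487.8, chromosome 1 from 150100031 to 150108227, plus strand) ranged from 8.48 to 36.3 CPM (median 23.7) in B16-GFP, from 17.1 to 56.1 CPM (median 28.0) in B16-IFNA4 and from 11.2 to 36.8 CPM (median 23.0) in B16-IFNA9 tumors. The 3 ranges overlapped widely, and 3 B16-IFNA4 tumors exceeded all B16-GFP tumors. The log2 fold change of 0.50 with IFNα4 (SE 0.22, adjusted p = 0.0436) just passed. It was lost in 12 of the 30 fits that left out 1 tumor, those without B16-GFP tumors 2, 3, 4, 6 and 7, B16-IFNA4 tumors 1, 3, 5 and 6 and B16-IFNA9 tumors 1, 4 and 6, with adjusted p = 0.07 without B16-GFP tumor 7 and up to 0.118 without B16-IFNA4 tumor 6. The call was also lost in 4 other settings: edgeR's own filter on low counts (adjusted p = 0.0543), no filter (adjusted p = 0.0567), only the 20 tumors compared (adjusted p = 0.0558) and a replicate block (adjusted p = 0.0577). The log2 fold change was 0.04 with IFNα9 (SE 0.22, adjusted p = 0.887) and −0.46 between B16-IFNA9 and B16-IFNA4 tumors (SE 0.22, adjusted p = 0.144).

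Levels were compared between genes only per kilobase of exon. On this scale, Il18 led in B16-GFP tumors with a mean of 17.1 ± 4.16 CPM per kilobase (SD, n = 10), followed by Il1rn with 11.1 ± 4.00, and the other 8 genes lay between 0.230 and 6.04. In B16-IFNA4 tumors Il18 (33.6 ± 4.80), Il1rn (27.9 ± 7.23) and Il18bp (23.8 ± 4.55) were the highest, and the SDs of neighbours in this order overlapped. In B16-IFNA9 tumors Il18bp came first with 36.2 ± 15.4 CPM per kilobase, before Il18 with 26.0 ± 3.83 and Il1rn with 16.2 ± 2.60. By its mean, Il18bp had the fifth place in B16-GFP tumors (4.37 ± 1.18), the third in B16-IFNA4 and the first in B16-IFNA9 tumors. Its SD overlapped those of Ptgs2 (4.95 ± 1.68) and Il1b (6.04 ± 2.12) in B16-GFP tumors and that of Il18 in B16-IFNA9 tumors. By their means, Il6 and Il27 held the lowest 2 places in all 3 types.

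The partners of these genes were counted in 7 lists of receptors, signaling proteins and related enzymes, chosen with earlier results of these data known. Of the 92 genes, 78 were tested, and 49 were called higher and 7 lower in B16-IFNA4 than in B16-GFP tumors. In B16-IFNA9 tumors 38 were higher and 10 lower, and between B16-IFNA9 and B16-IFNA4 tumors 5 were higher and 11 lower. Over all genes tested, 31.3% were called higher and 34.1% lower in the first comparison, 26.9% and 28.9% in the second and 10.5% and 7.25% in the third. The median log2 fold changes of the 78 were 0.62, 0.37 and −0.19, beside 0.0092, −0.0031 and −0.0055 over all genes. The counts of the single lists are to be read against the same shares.

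Among the 15 IL-1 and IL-18 receptor and signaling genes, 7 were called higher and 0 lower with IFNα4, 8 higher and 1 lower with IFNα9, and 1 higher and 3 lower between B16-IFNA9 and B16-IFNA4 tumors. Both chains of the IL-18 receptor rose: Il18r1 by log2 fold changes of 2.54 and 1.86 and Il18rap by 3.46 and 2.69 with IFNα4 and IFNα9 (adjusted p from 8.62e-13 to 1.45e-06). Il18rap was lower with IFNα9 than with IFNα4 by −0.76 (adjusted p = 0.0166). The signaling receptor of IL-1 did not pass the test, with log2 fold changes of 0.07 and −0.20 for Il1r1 (adjusted p = 0.76 and 0.364) and 0.16 and 0.09 for its partner Il1rap (adjusted p = 0.171 and 0.464). The decoy receptor Il1r2 rose by 0.99 and 0.66 (adjusted p = 4.86e-05 and 0.00404). The adaptor Myd88 rose by 1.12 and 0.49 and was lower with IFNα9 than with IFNα4 by −0.63 (adjusted p = 0.000194). Irak2, a kinase of the same pathway, rose by 0.91 and 1.22, and Irak3, which restrains it, by 1.14 and 0.93.

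All 8 tested genes of the 12 listed for inflammasomes and cytokine processing were called higher with IFNα4 and 7 with IFNα9. Aim2, a sensor of cytosolic DNA, rose by log2 fold changes of 2.44 and 1.96, the inflammatory caspase gene Casp4 by 2.34 and 1.68, the sensor Nlrp3 by 1.63 and 1.34, the sensor Nlrp1b, which has close paralogs, by 1.16 and 1.40 and the adaptor Pycard by 1.00 and 0.80. Between B16-IFNA9 and B16-IFNA4 tumors, Casp4 alone of the 8 was called, at −0.66 (adjusted p = 0.0108). Casp1 and Gsdmd were not analysed here.

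Of the 11 tested IL-6 family, receptor and signaling genes, 8 were higher and 0 lower with IFNα4, 5 higher and 2 lower with IFNα9, and 0 higher and 5 lower between B16-IFNA9 and B16-IFNA4 tumors. The receptor chain Il6ra rose by 1.12 and 0.74 and the shared chain Il6st by 0.55 and 0.25. Il11, a cytokine that signals through the same shared chain, rose by 1.37 with IFNα4 (adjusted p = 5.11e-05), was at 0.20 with IFNα9 (adjusted p = 0.539) and was lower with IFNα9 than with IFNα4 by −1.16 (adjusted p = 0.00207). Clcf1, a further cytokine of the family, rose by 1.23 and 0.74. The transcription factor gene Stat3 had log2 fold changes of 0.01 and 0.08 (adjusted p = 0.888 and 0.359).

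Of 8 tested genes of the IL-12 and IL-27 family and its receptors, 7 were higher with IFNα4 and 6 with IFNα9. Il27ra, the receptor chain of IL-27, rose by 1.21 and 1.06, Il12rb2 by 1.37 with IFNα4 (at 0.76 with IFNα9, adjusted p = 0.0628), Il23r by 1.82 and 1.72 and Stat4 by 1.95 and 1.64. Il12rb1, a chain shared by the receptors for IL-12 and IL-23, rose by 2.19 and 3.22 and was higher with IFNα9 than with IFNα4 by 1.03 (adjusted p = 0.00604), the one gene of this list called in that comparison. Ebi3, the partner subunit of Il27, was not analysed here. Of 7 tested genes of the IL-15 receptor and its signaling, 5 were higher with IFNα4 and 4 with IFNα9. Il15ra, the chain that presents IL-15 to neighbouring cells, rose by 1.49 and 1.10, and the common γ chain Il2rg by 1.60 and 1.28.

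Of 11 tested genes around nitric oxide and arginine, 2 were higher and 4 lower with IFNα4, and 1 higher and 4 lower with IFNα9. The 4 lower genes stand beside 34.1% and 28.9% of all genes called lower, and nothing particular to these genes is read from the count. Spr, an enzyme of the synthesis of tetrahydrobiopterin, the cofactor of nitric oxide synthases, was lower by log2 fold changes of −1.02 and −0.73 (adjusted p = 5.08e-07 and 9.21e-05), and the arginine transporter gene Slc7a1 by −0.95 and −0.67. Nos3, the endothelial synthase, was lower with IFNα9 by −1.11 (adjusted p = 0.00472) and was at −0.41 with IFNα4 (adjusted p = 0.254). Ass1, which recycles arginine, was higher with IFNα4 by 0.56 (adjusted p = 0.00979). Of the 4 endothelial markers, 2 were lower and 0 higher with IFNα9, and 2 were lower and 1 higher with IFNα4. The part of endothelial cells in the fall of Nos3 was not tested.

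Of 18 tested genes of prostanoid synthesis and receptors, 12 were higher and 3 lower with IFNα4, and 7 higher and 3 lower with IFNα9. Pla2g4a, the phospholipase that releases arachidonic acid, rose by 0.84 and 0.93, and Ptgs1, the constitutive cyclooxygenase, by 0.82 with IFNα4. The synthase gene Ptges, which acts downstream of Ptgs2, rose by 0.63 with IFNα4 (adjusted p = 0.00167) and was at 0.33 with IFNα9 (adjusted p = 0.0995), whereas Ptges3 fell by 0.79 and 0.61. Among the receptors, Ptgdr rose by 1.46 and 1.02, Ptgfr by 1.04 and 1.16 and Ptger4, a receptor of prostaglandin E, by 0.89 and 0.51.

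Because the samples were whole tumors, a changed share of cells of a type and a changed amount of RNA per cell cannot be told apart. Cell type markers moved with these results. The summed level of 5 leukocyte markers, all measured, ran from 141 to 506 CPM (median 403) in B16-GFP, from 806 to 1626 CPM (median 1225) in B16-IFNA4 and from 553 to 1081 CPM (median 935) in B16-IFNA9 tumors, without overlap of B16-GFP with the others. The 5 NK cell markers ran from 3.48 to 24.3 CPM, from 83.3 to 284 CPM and from 48.4 to 182 CPM. The order of the medians, highest with IFNα4, was that of Il15 and Il18 and not that of Il18bp and Nos2.

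The 10 of 12 macrophage and monocyte markers with a row summed to 536 to 2267 CPM, 1805 to 3161 CPM and 1512 to 2618 CPM. Of them 4 rose and 2 fell with IFNα4 and 4 rose and 0 fell with IFNα9. With IFNα4 the rise was led by the monocyte marker Ly6c2 with a log2 fold change of 3.24 (adjusted p = 2.18e-15), and the resident macrophage markers Mrc1 (−0.78, adjusted p = 0.00193) and C1qc (−0.58, adjusted p = 0.0156) fell. The 8 of 9 neutrophil markers with a row summed to 7.58 to 44.1 CPM, 39.2 to 79.4 CPM and 21.9 to 41.1 CPM, and Csf3r had means of 11.3, 45.8 and 26.7 CPM. Of the 5 neutrophil markers tested, 2 were higher and 2 lower with IFNα4 and 1 was higher and 2 were lower with IFNα9. The lower ones were S100a8, with means of 4.26, 2.59 and 1.94 CPM, and S100a9, with means of 4.28, 2.61 and 1.16 CPM. B16-GFP tumor 1 had 12.1 CPM of S100a8 and 14.1 CPM of S100a9, beside medians of 2.87 and 3.56 CPM in its type. The defining neutrophil markers Ly6g, Camp and Ngp had means of at most 0.133 CPM in any type, near 0. The 5 of 6 T cell markers with a row summed to 2.32 to 55.5 CPM, 48.6 to 104 CPM and 18.0 to 69.2 CPM, and the 8 dendritic cell markers to 36.5 to 104 CPM, 95.8 to 142 CPM and 100 to 139 CPM.

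Of the cells that could hold Il1a and Il18 outside the leukocytes, 6 of 8 keratinocyte markers had a row and summed to 965 to 7197 CPM in B16-GFP, 6615 to 9893 CPM in B16-IFNA4 and 2089 to 8422 CPM in B16-IFNA9 tumors, and 5 of the 6 were higher with IFNα4 and 2 with IFNα9. The 3 of 7 melanocyte markers with a row, Tyr, Mitf and Tyrp1, summed to 7215 to 22825 CPM, 2156 to 3630 CPM and 3366 to 8916 CPM, so the labelled melanoma was present in all tumors and its markers were lower in both interferon-secreting types. The 4 of 6 fibroblast markers summed to 2150 to 9564 CPM, 4553 to 8204 CPM and 4963 to 8120 CPM, and the 4 endothelial markers to 136 to 363 CPM, 219 to 322 CPM and 114 to 194 CPM. The part of any of these cell types in the levels of the 10 genes was not tested.

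**Figure D4:**
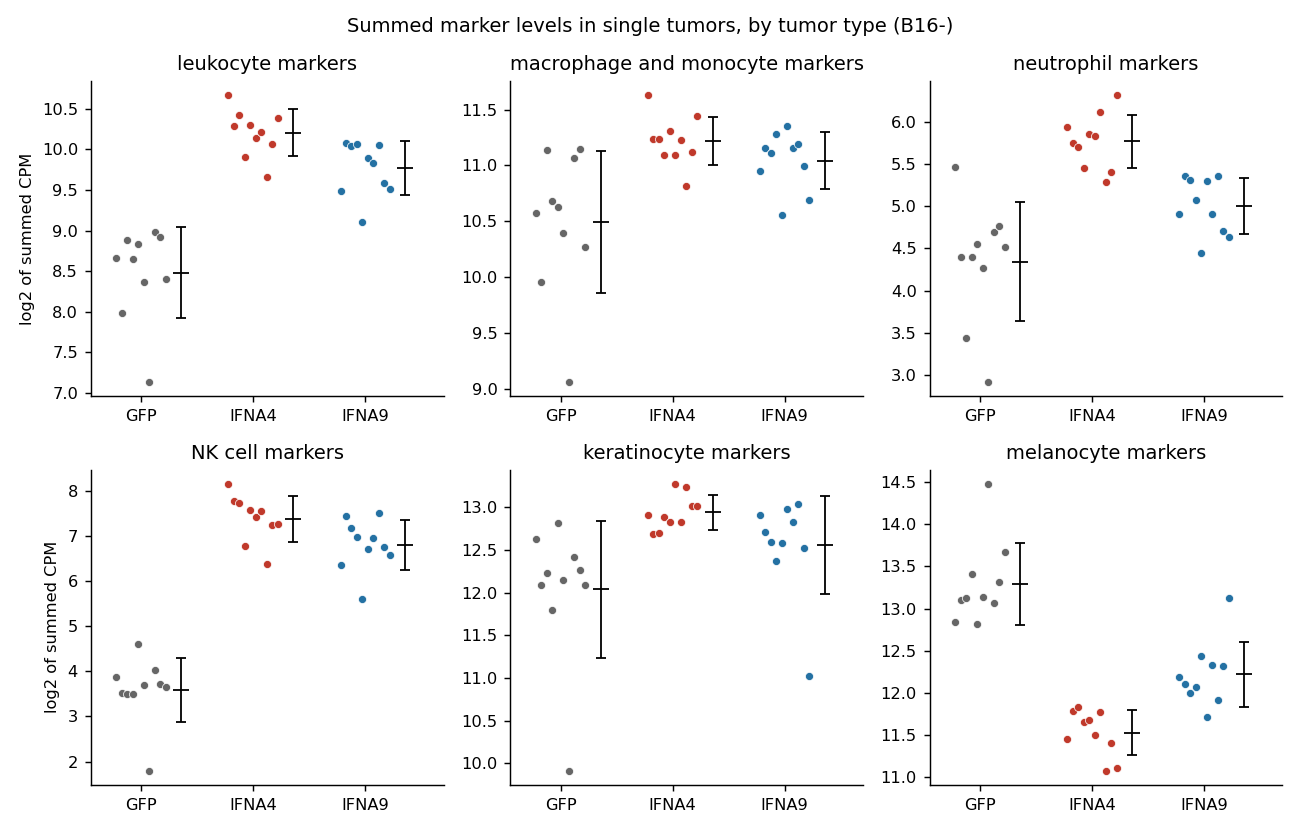
Log2 of the summed TMM-normalized CPM (y axis) of 6 marker lists in each tumor (points), by type, with the mean and SD of the log2 values beside them. Leukocyte and NK cell markers lay higher in all B16-IFNA4 and B16-IFNA9 tumors than in any B16-GFP tumor, and melanocyte markers lay lower in all B16-IFNA4 tumors. The lowest leukocyte and highest melanocyte point among B16-GFP tumors is tumor 7.

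Within types, the 10 genes varied together to different degrees. Pearson's r of log2 CPM was taken over the 30 tumors after removing the mean of each type, as a description, since the tumors share their content of leukocytes and skin and each library its normalization. Of the 45 pairs, Il15 and Il18bp had the highest r, 0.79, and 0.73 without B16-GFP tumor 7, with 0.84, 0.79 and 0.81 within B16-GFP, B16-IFNA4 and B16-IFNA9 tumors. Il1b and Il1rn came next with 0.78, which rested in part on that tumor: r was 0.56 without it, and 0.37 and 0.52 within B16-IFNA4 and B16-IFNA9 tumors. Il18bp and Nos2 had an r of 0.71 over the 30 tumors, 0.63 without B16-GFP tumor 7, and 0.71, 0.21 and 0.91 within B16-GFP, B16-IFNA4 and B16-IFNA9 tumors. With the summed NK cell markers, r within the types in the same order was 0.73, 0.71 and 0.91 for Il18bp and 0.93, 0.47 and 0.94 for Nos2. Tumor 7 was the lowest B16-GFP tumor for both genes and these markers. Without it, r with these markers over the other tumors was 0.71 for Il18bp and 0.72 for Nos2. Within B16-GFP tumors, with tumor 7 kept, r with keratinocyte and melanocyte markers was 0.79 and −0.81 for Il18bp and 0.92 and −0.92 for Nos2. Over the 30 tumors Il6 had an r of 0.45 with Ptgs2 and of at most 0.28 with each of the other 8. Within types its r differed in sign: with Il18bp it was 0.70 in B16-IFNA4 and −0.56 in B16-IFNA9 tumors, with Il1rn 0.48 and −0.71, and with Il15 0.67 and −0.37. Without B16-IFNA9 tumor 10, the highest of its type for Il6 (a choice made after seeing the data), these B16-IFNA9 values were −0.48, −0.42 and −0.05.

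**Figure D5:**
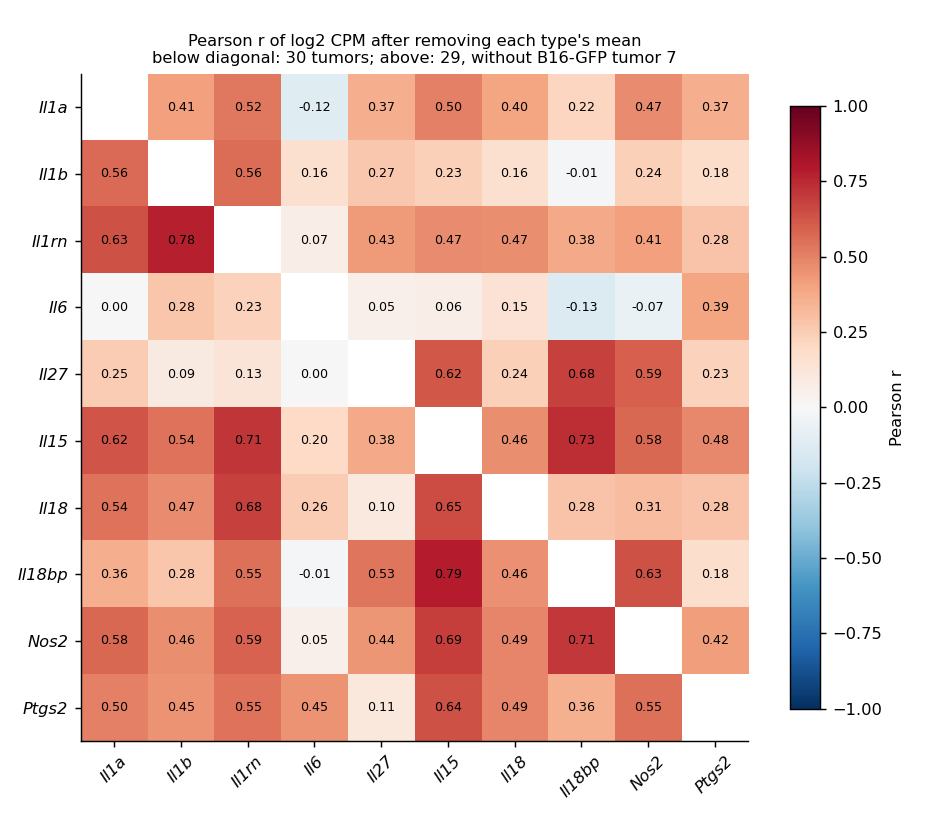
Pearson's r of log2 CPM between the 10 genes after removing the mean of each type, over 30 tumors below the diagonal and over 29 tumors, without B16-GFP tumor 7, above it. Il15 with Il18bp had the highest r (0.79 and 0.73), and Il6 had an r of 0.45 with Ptgs2 and of at most 0.28 with the other genes below the diagonal.

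The gene most like each of the 10 was taken by the same r over the 30 tumors. It was Gbp2 for Il18bp (0.93), Frmd4b for Il1rn (0.91), Sema3a for Il18 (0.91), Gbp9 for Il15 (0.90), Il33 for Ptgs2 (0.87), Irf8 for Nos2 (0.85), Htr7 for Il1b (0.84), Tmprss11f for Il1a (0.83), Cst7 for Il27 (0.68) and Cd44 for Il6 (0.65). Without B16-GFP tumor 7, r fell most for Il1rn with Frmd4b, to 0.74, and for Il1b with Htr7, to 0.70, and it was 0.91 for Il18bp with Gbp2. Gbp2 and Gbp9 encode guanylate-binding proteins of a family with near-identical members, among which reads may be split, Irf8 a transcription factor of myeloid cells and Il33 a cytokine of the IL-1 family.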

How the data were processed

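RNA from 30 whole tumors had been sequenced by the authors from stranded mRNA libraries as single-end reads of 50 bases. Per the labels, the submitters' processing notes name FastQC 0.11.3, HISAT2 2.0.4 and mm10, whereas the study's methods name mm11 as the reference. The deposited values are raw counts per gene, made by the authors with summarizeOverlaps, without normalization. The annotation, overlap mode, strand setting and treatment of reads with several alignments are not given in the sources used here. Gene names and GRCm38 coordinates were taken from GENCODE M21, which held 39495 of the 39676 identifiers.

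Tumors were grouped by their titles. Counts were compared with edgeR 4.0.16 (R 4.3.3), after TMM normalization of genes with 10 or more counts on average, in 1 quasi-likelihood fit of all 30 tumors, with Benjamini-Hochberg adjustment over 15926 genes. Ratios were tested by permutation (two-sided, 100000 resamples) (SciPy 1.17.1). Log2 CPM took a prior count of 2. The fit and the permutation test were tested on simulated data. The alternatives were other scalings, DESeq2 1.42.0, other filters, only the 20 tumors compared, a replicate block and leaving out each tumor. Total counts ran from 14598517 to 19788383, and no pair of tumors was identical in counts. The genes described, the lists and the tests were chosen with earlier results of these data known. All 10 genes are named, and of the lists those called with a change of at least 2-fold and up to 5 per list as partners, except 1 gene that is not reported here. The study chose DESeq2 for its own comparisons, and none of its values were used.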

Additional observations from a re-analysis of the deposited data

Results flagged for a closer look

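A tumor was looked at again when its value lay far from the other 9 of its type, by Dixon's test at 95%, in 69 groups of values. Chance would give about 3.45 such values, 1 in 20, and 9 were found, 6 of them in B16-GFP tumor 7. On the log2 CPM scale that tumor was the lowest of its type for Il1b (1.74, nearest value 3.08), Il1rn (3.88, nearest 5.52) and Nos2 (0.14, nearest 2.04). In log2 of the summed CPM it was also the lowest for NK cell markers (1.80, nearest 3.49) and keratinocyte markers (9.91, nearest 11.8), and the highest for melanocyte markers (14.5, nearest 13.7). Without it, Il1b, Il1rn and Nos2 kept log2 fold changes of 0.57, 1.23 and 1.24 between B16-IFNA4 and B16-GFP tumors, all called. Among B16-IFNA9 tumors, tumor 5 was the lowest for Ptgs2 (3.50 log2 CPM, nearest 4.31). Tumor 10 was the lowest for keratinocyte markers (11.0, nearest 12.4) and the highest for melanocyte markers (13.1, nearest 12.4). It was also the lowest of its type for Il1a, Il1b, Il1rn, Il27 and Il18 and the highest for Il6. The part of these markers in the levels was not tested.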

How the results depend on the processing

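Of 210 log2 fold changes of the 10 genes under the other settings, 193 kept their direction and side of the threshold, as did 837 of 900 after leaving out single tumors. The number of the 10 called between B16-IFNA9 and B16-IFNA4 tumors was 3 without a filter on low counts and 3 with the replicate block, and 3 to 7 when 1 tumor was left out. Having no filter ended the calls of Il6 (adjusted p = 0.0674), Il18 (adjusted p = 0.0535) and Nos2 (adjusted p = 0.0617) there. With only the 20 tumors compared, 4332 genes in all were called there, against 2833. The replicate block gave Il6 a log2 fold change of −0.0073 between B16-IFNA9 and B16-GFP tumors, the reverse sign of 0.02. It also ended the call of Ptgs2 between B16-IFNA4 and B16-GFP tumors (0.51, adjusted p = 0.0577) and, between B16-IFNA9 and B16-IFNA4 tumors, those of Il18 (−0.37, adjusted p = 0.0539), Il18bp (0.55, adjusted p = 0.0816) and Nos2 (1.00, adjusted p = 0.112), and for the log2 ratio of Il1rn to Il1a between B16-IFNA4 and B16-GFP tumors it gave 0.51 with adjusted p = 0.0904. The replicate numbers did not pair the tumors: correlations of same-numbered tumors ran from −0.267 to 0.302, and at most 2 of 10 pairs exceeded 0.1. Leaving out 1 tumor moved this ratio between 0.41 and 0.61. It turned the sign of differences near 0: Il6 between B16-IFNA9 and B16-GFP tumors ran from −0.15 to 0.11 and Ptgs2 from −0.052 to 0.16, and Il1a between B16-IFNA9 and B16-IFNA4 tumors from −0.10 to 0.048. Scaling by totals alone moved the median log2 fold change of all genes by 0.10 between B16-IFNA9 and B16-GFP tumors and the split from 4281 higher and 4595 lower to 5052 and 3608, and none of the 7 calls there was lost. The split moved from 4977 higher and 5435 lower to 5413 and 4758 between B16-IFNA4 and B16-GFP tumors and from 1679 and 1154 to 2030 and 916 between B16-IFNA9 and B16-IFNA4 tumors. Between B16-IFNA9 and B16-IFNA4 tumors that scaling ended the calls of Il6 (adjusted p = 0.0532) and Il18 (adjusted p = 0.0643). The causes were not tested. Depth limits Il27 most, with as few as 0 counts in a tumor, and the lowest counts of Nos2 and Il6 were 11 and 13.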
